A study of Macaca mulatta with 18 samples.

Results

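The DNA replication and S-phase genes described here are 47 genes whose proteins license replication origins, unwind and copy DNA, supply nucleotides, protect replication forks and rebuild chromatin on the copied strands. They were listed by gene name, with earlier results of these data known. In the RNA table of 22345 macaque genes 46 of the 47 were found by symbol, and all 46 passed the filter on low values. ORC1, the largest subunit of the origin recognition complex, had no symbol match and was not analysed here. The RNA came from brain of wild type rhesus macaque (Macaca mulatta) fetuses at embryonic day 84. GZ cells gave 3 libraries and CP cells gave 3 libraries. The labels do not spell out these names, which in fetal cortex usually stand for the germinal zone, where progenitors divide, and the cortical plate, where young neurons settle. Hi-C, DNase-seq and CTCF ChIP-seq of the same tissues are not used here. The labels do not say how many fetuses were used, whether tissue was pooled, or whether each library stands for its own animal. The p-values therefore reflect nothing beyond library-to-library variation, an unknown part of which may be technical.

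A cell copies its genome once per division by splitting the work between phases. In G1 the origin recognition complex, CDC6 and CDT1 load rings of MCM2 to MCM7 onto DNA, which licenses the origin. In S phase CDC45 and the GINS complex join the ring and turn it into an active helicase, and polymerases alpha, delta and epsilon copy the opened strands. E2F transcription factors drive many of these genes around the start of S phase, and in fetal cortex their transcripts mark cycling progenitors rather than neurons that have left the cycle.

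Values are log2 FPKM, that is read fragments scaled to transcript length and library size, which the authors had normalized with cqn, a method that adjusts for GC content and length. The read depth of the libraries is unknown because the table holds no counts. Differences are GZ minus CP on this scale and were tested with limma across 13460 genes with a mean of 0 or more, with Benjamini-Hochberg adjustment. A gene is said to be called, or to rise, at an adjusted p under 0.05. Over 9 Y-linked genes the summed normalized FPKM was 18.1, 159 and 9.24 in GZ libraries 1, 2 and 3 and 60.2, 164 and 9.88 in CP libraries 1, 2 and 3. Libraries numbered 2 were thus high and those numbered 3 low, while those numbered 1 were unlike each other. GZ library 1 lay nearer to the libraries numbered 3. On the log2 scale it had DDX3Y at -0.74 and RPS4Y1 at -0.23, against 3.42 and 4.45 in CP library 1. EIF1AY alone went the other way, at 1.66 in GZ library 1 and 0.31 in CP library 1. The main counts are given below with and without both libraries numbered 1.

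Of the 46 genes, 41 rose in GZ and 0 fell, where 24.5% of all genes tested rose and 20.9% fell. Because the list was made with earlier results of these data known, the shares of all genes are given for scale and are not a test. At an unadjusted p under 0.05 the counts were 42 higher and 0 lower, and 0 were called lower under any of the 16 alternative settings or left-out libraries run. At least 2-fold rises were found for 23 of the 46, against 5.41% of all genes tested. The median difference of the 46 was 1.00, a 2.00-fold higher level in GZ, and the median over all genes tested was 0.05. All 3 GZ values lay above all 3 CP values for 41 of the 46 genes, against 30.9% of all genes, and lay below them for 0, against 25.5%. By size of difference 34 of the 46 were within the highest 10% of all genes tested. In tissue RNA a larger share of cycling cells and more RNA per cycling cell cannot be told apart. Without both libraries numbered 1 the count was 25 of 46, where 12.2% of all genes tested rose, and the median difference was 0.97.

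**Figure D1:**
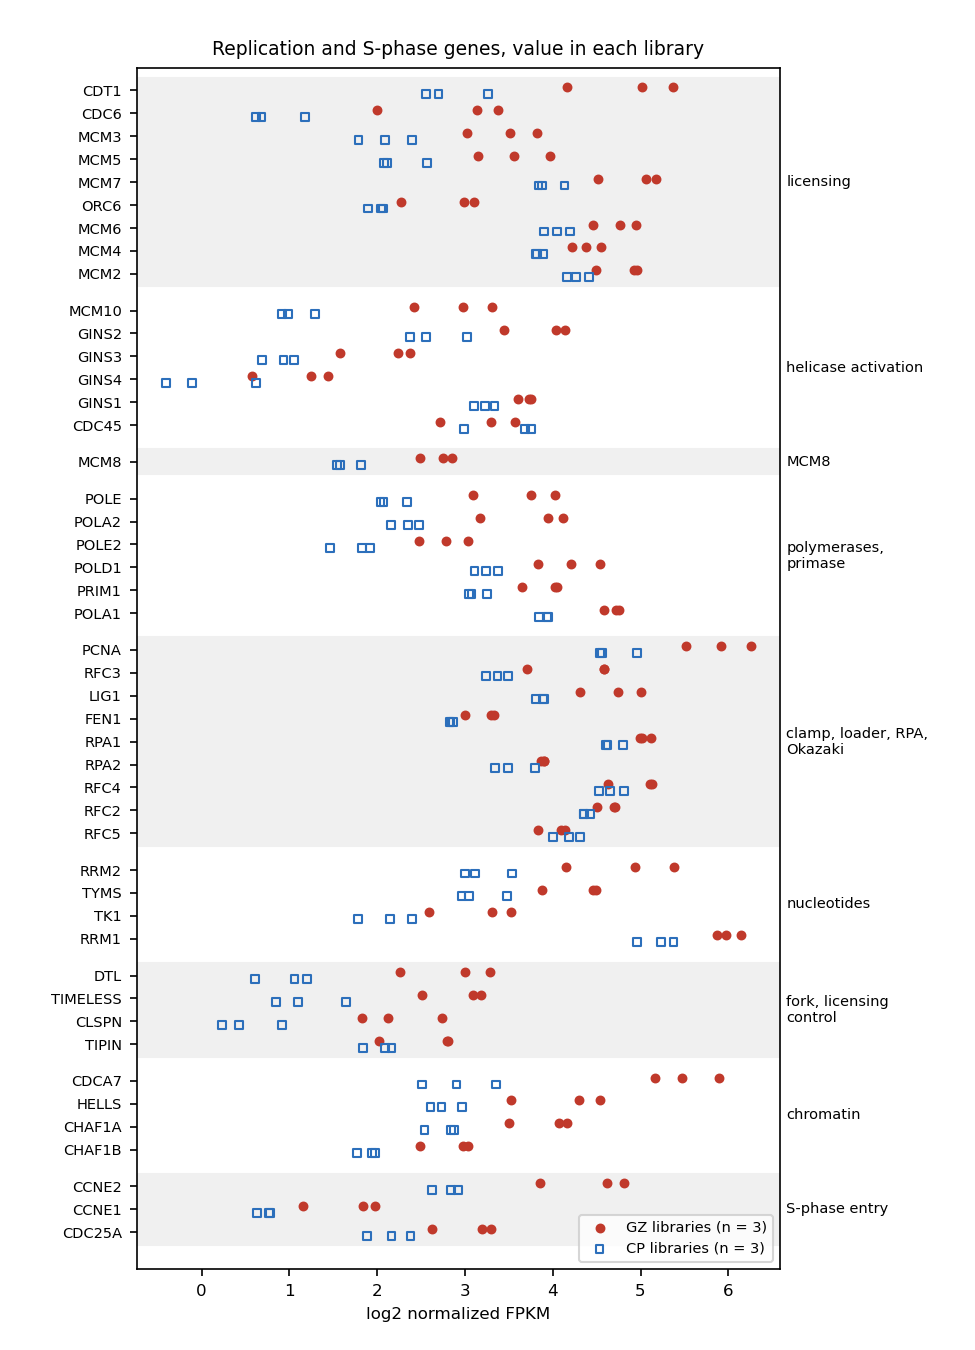
Level of each of the 46 genes (log2 normalized FPKM) in each of the 3 GZ libraries (filled circles) and 3 CP libraries (open squares), grouped by role. For 41 genes the circles and squares do not overlap, and CDC45, RFC4, RFC5, TIPIN and GINS4 are the genes where they do.

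The highest levels per length in GZ were those of RRM1, at 64.0 normalized FPKM, and PCNA, at 59.7, and the same genes led in CP at 36.5 and 25.7. The lowest was GINS4, with 2.12 in GZ and 1.02 in CP, taken from the means on the log2 scale. RRM1 was above PCNA in GZ libraries 1 and 3 and below it in GZ library 2, so their order in GZ is within the spread between libraries, and in CP RPA1 stood close behind PCNA at 25.6. The spread between GZ libraries was wider for these genes than for most: their median SD was 0.37 in GZ and 0.18 in CP, against 0.15 and 0.15 over all genes tested.

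Origin licensing genes rose in GZ without exception among the 9 measured. CDT1, which with CDC6 loads the MCM ring, had the largest difference. It had 5.02, 5.37 and 4.16 in GZ libraries 1, 2 and 3, against 3.26, 2.56 and 2.70 in CP libraries 1, 2 and 3, which is 4.03-fold higher in GZ (2.01 ± 0.31 SE, adjusted p = 0.0018). CDC6, the ATPase that recruits CDT1 with its MCM ring to the origin, had 3.13, 3.37 and 2.00 in GZ, against 1.18, 0.68 and 0.62 in CP (4.02-fold, 2.01 ± 0.36 SE, adjusted p = 0.0032). The lowest GZ library of each gene was number 3, and it still lay above the highest CP library.

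The 6 MCM ring subunits did not rise by the same amount. MCM2 had 4.93, 4.96 and 4.49 in GZ, against 4.41, 4.16 and 4.27 in CP (1.43-fold, 0.51 ± 0.14 SE, adjusted p = 0.019). MCM4 had 4.38, 4.55 and 4.23 in GZ, against 3.89, 3.80 and 3.82 in CP (1.46-fold, adjusted p = 0.0049). For MCM2 the gap between the lowest GZ and the highest CP library was small, while for MCM4 the tissues were well apart with little spread. MCM3 was 2.56-fold and MCM5 2.48-fold higher, MCM7 1.96-fold and MCM6 1.60-fold. MCM3 and MCM5 also had the lowest levels of the ring in both tissues, at 10.9 and 11.8 normalized FPKM in GZ and 4.26 and 4.77 in CP, where MCM2 stood at 27.7 in GZ and 19.4 in CP. ORC6, the smallest subunit of the origin recognition complex, was 1.72-fold higher (adjusted p = 0.024).

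The rises of ORC6 and MCM2 lost their calls in several fits with 1 library left out, while their differences stayed positive. ORC6 was not called by limma without GZ replicate 1 (adjusted p = 0.088), GZ replicate 2 (0.080), CP replicate 1 (0.052), CP replicate 2 (0.058) or CP replicate 3 (0.074). MCM2 was not called without GZ replicate 1 (adjusted p = 0.074), GZ replicate 2 (0.064), CP replicate 2 (0.063) or CP replicate 3 (0.057). In these fits the difference of ORC6 was 0.63 to 0.82 and that of MCM2 0.43 to 0.51. CDC6, CDT1, MCM3, MCM4, MCM5, MCM6 and MCM7 kept their calls when any 1 library was left out.

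Among helicase activation genes 5 of 6 rose, and CDC45 was the exception. MCM10, a scaffold that helps the helicase to start, had 2.98, 3.31 and 2.42 in GZ, against 1.29, 0.99 and 0.92 in CP (3.58-fold, 1.84 ± 0.25 SE, adjusted p = 9.62e-04). GINS2 had 4.04, 4.14 and 3.45 in GZ, against 3.02, 2.38 and 2.56 in CP (2.34-fold, adjusted p = 0.004). GINS1 had 3.61, 3.75 and 3.73 in GZ, against 3.23, 3.10 and 3.34 in CP (1.39-fold, adjusted p = 0.011). The tissues did not overlap for these genes, and GINS1 had the tightest GZ values of the 3.

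GINS3 was 2.26-fold higher in GZ and GINS4 2.08-fold (adjusted p = 0.038). GINS4 overlapped between tissues in 1 GZ and 1 CP library, and was not called without GZ replicate 1 (adjusted p = 0.108), GZ replicate 2 (0.118), CP replicate 2 (0.114) or CP replicate 3 (0.101). CDC45, which joins the MCM ring and GINS in the active helicase, had 3.57, 3.29 and 2.71 in GZ libraries 1, 2 and 3, against 2.99, 3.75 and 3.68 in CP libraries 1, 2 and 3. Its difference was -0.28 ± 0.27 SE with a 95% interval of -0.90 to 0.34 (adjusted p = 0.426), so CP libraries 2 and 3 were above every GZ library while CP library 1 lay among them. The CDC45 difference depended on the libraries: it was -0.53 without CP replicate 1 (adjusted p = 0.137), -0.04 without GZ replicate 3 (0.901), -0.71 without both libraries numbered 1 (0.071) and 0.02 with array weights (0.941). MCM8, a relative of the ring subunits that works in recombination repair, had 2.75, 2.85 and 2.48 in GZ, against 1.57, 1.54 and 1.82 in CP (2.07-fold, adjusted p = 0.0019).

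All 6 polymerase and primase genes rose, by 1.72-fold to 2.78-fold. POLE, the catalytic subunit of the leading-strand polymerase epsilon, had 3.75, 4.03 and 3.09 in GZ, against 2.34, 2.07 and 2.04 in CP (2.78-fold, 1.47 ± 0.24 SE, adjusted p = 0.0022). POLA2, the regulatory subunit of polymerase alpha, had 3.94, 4.12 and 3.17 in GZ, against 2.47, 2.36 and 2.16 in CP (2.67-fold, adjusted p = 0.0027). Both genes were lowest among the GZ libraries in number 3.

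POLA1, the catalytic subunit of polymerase alpha, had 4.72, 4.76 and 4.58 in GZ, against 3.94, 3.84 and 3.93 in CP (1.72-fold, 0.78 ± 0.09 SE, adjusted p = 5.58e-04). PRIM1, the primase that lays the RNA primers, had 4.03, 4.05 and 3.65 in GZ, against 3.08, 3.04 and 3.25 in CP (1.73-fold, adjusted p = 0.0032). POLA1 had a small difference for the group and also the narrowest spread, and its adjusted p was the second lowest among the 46 genes. POLD1, the catalytic subunit of polymerase delta, was 1.93-fold higher and POLE2 2.04-fold. All 6 calls held when any 1 library was left out.

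The clamp, clamp loader, RPA and Okazaki fragment genes showed the smallest differences of the roles, with a median of 0.37 and 6 of 9 called. PCNA, the sliding clamp that holds polymerases on DNA, had 5.92, 6.26 and 5.52 in GZ, against 4.96, 4.54 and 4.56 in CP (2.32-fold, 1.21 ± 0.19 SE, adjusted p = 0.002). It stood apart from the rest of its group, since LIG1, the ligase that seals Okazaki fragments, and RFC3 were 1.76-fold and 1.90-fold higher and FEN1, the flap endonuclease, 1.29-fold. RPA1, the large subunit of the single-strand binding protein RPA, was 1.29-fold higher (adjusted p = 0.011).

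The loader subunits of replication factor C, which open the clamp, did not move together. RFC3 had 4.58, 4.58 and 3.71 in GZ, against 3.49, 3.24 and 3.37 in CP (adjusted p = 0.014). RFC2 had 4.71, 4.69 and 4.51 in GZ, against 4.42, 4.35 and 4.36 in CP (1.20-fold, adjusted p = 0.049). RFC4 had 5.14, 5.11 and 4.63 in GZ, against 4.65, 4.81 and 4.53 in CP (0.30 ± 0.15 SE, adjusted p = 0.143). For RFC3 and RFC2 the tissues did not overlap, whereas for RFC4 GZ library 3 lay among the CP values.

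RFC5 had 4.14, 4.10 and 3.83 in GZ, against 4.00, 4.31 and 4.19 in CP, with a difference of -0.14 ± 0.13 SE and a 95% interval of -0.43 to 0.15 (adjusted p = 0.397). RPA2 had 3.90, 3.87 and 3.90 in GZ, against 3.80, 3.34 and 3.49 in CP (0.34 ± 0.13 SE, adjusted p = 0.065). RPA2 did not overlap between tissues although it missed the threshold, and RFC5 had 2 CP libraries above all GZ libraries. RFC4 was called without GZ replicate 3 (adjusted p = 0.010) and RPA2 without CP replicate 1 (0.021). RFC3 was not called without GZ replicate 1 (adjusted p = 0.051). RFC2 and FEN1 were each not called without GZ replicate 1 (adjusted p = 0.169 and 0.172), GZ replicate 2 (0.150 for both), CP replicate 1 (0.083 and 0.097), CP replicate 2 (0.096 and 0.094) or CP replicate 3 (0.117 and 0.112).

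**Figure D2:**
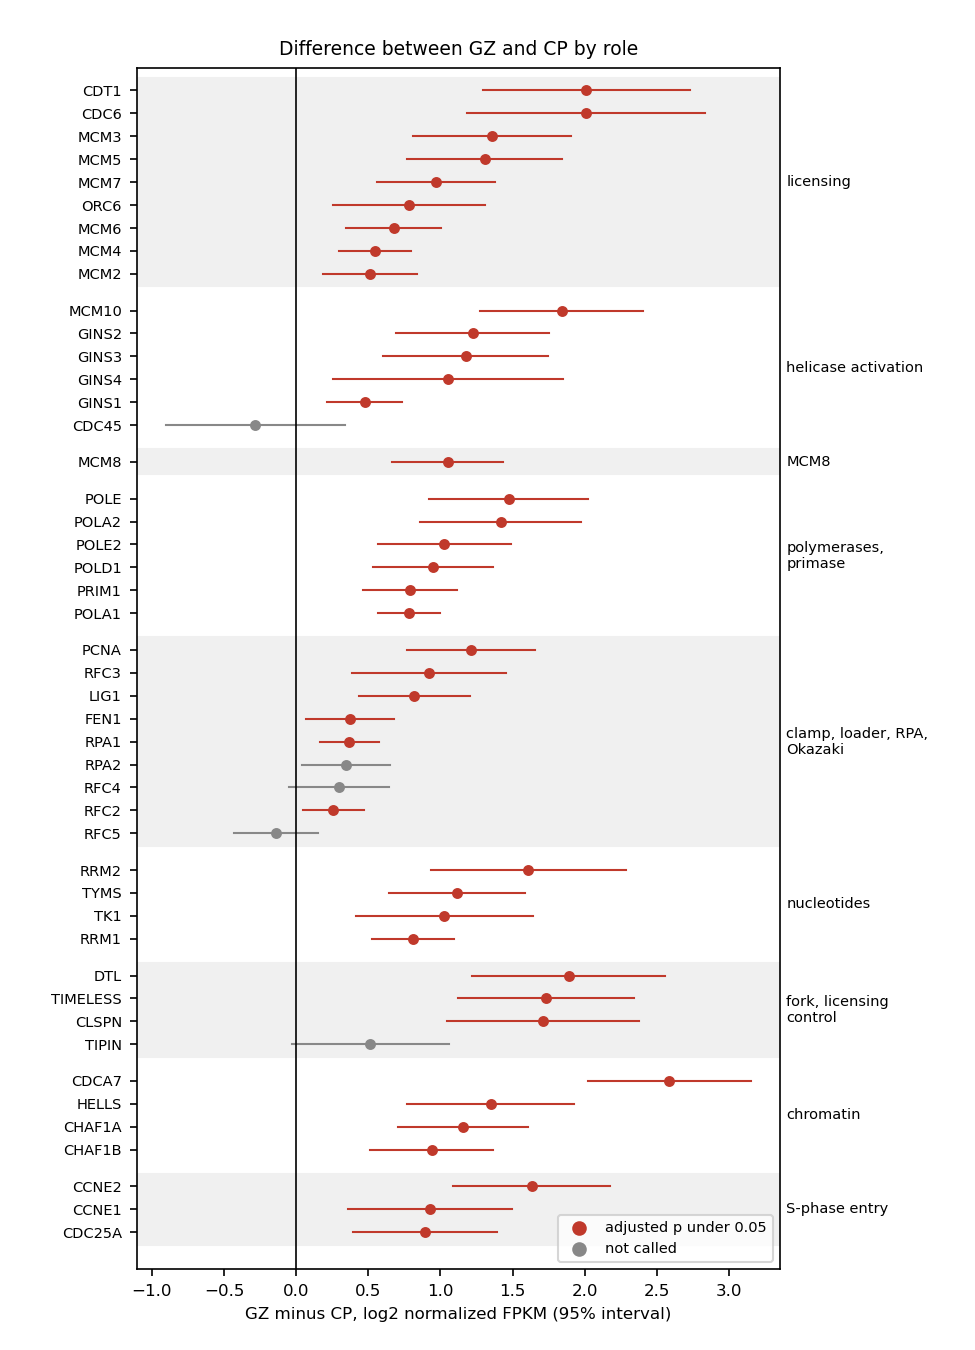
Difference of each of the 46 genes, GZ minus CP on the log2 scale, with its 95% interval from limma, grouped by role and sorted within it. CDCA7, CDT1 and CDC6 lie farthest to the right, the clamp and loader group lies nearest to 0, and the 5 grey genes were not called.

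The 4 genes of nucleotide synthesis rose in GZ. RRM2, the subunit of ribonucleotide reductase whose amount follows S phase, had 4.94, 5.38 and 4.16 in GZ, against 3.53, 3.00 and 3.11 in CP (3.05-fold, 1.61 ± 0.29 SE, adjusted p = 0.0034). TYMS, thymidylate synthase, had 4.49, 4.46 and 3.88 in GZ, against 3.48, 3.05 and 2.96 in CP (2.16-fold, adjusted p = 0.0036). For both genes every GZ library was above every CP library, with GZ library 3 closest to CP.

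TK1, the thymidine kinase of cycling cells, had 3.31, 3.52 and 2.59 in GZ, against 2.15, 2.40 and 1.79 in CP (2.04-fold, adjusted p = 0.016). RRM1, the large subunit of ribonucleotide reductase, had 5.98, 6.14 and 5.88 in GZ, against 5.38, 4.96 and 5.23 in CP (1.75-fold, 0.81 ± 0.12 SE, adjusted p = 0.0016). The GZ libraries of RRM1 were close together, and TK1 was more spread. The TK1 call was lost without GZ replicate 1 (adjusted p = 0.056) or CP replicate 3 (0.055).

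Fork protection and licensing control gave 3 of 4 genes with rises over 3-fold. DTL, the adaptor of the ubiquitin ligase that removes CDT1 in S phase, had 3.00, 3.28 and 2.26 in GZ, against 1.20, 0.61 and 1.06 in CP (3.71-fold, 1.89 ± 0.29 SE, adjusted p = 0.0017). CLSPN, which codes for the checkpoint mediator claspin, had 2.12, 2.74 and 1.83 in GZ, against 0.91, 0.23 and 0.43 in CP (3.27-fold, adjusted p = 0.0025). Both were low in CP, with means of 0.96 and 0.52 on the log2 scale.

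TIMELESS and TIPIN code for partners in 1 fork protection complex. TIMELESS had 3.10, 3.18 and 2.51 in GZ, against 1.64, 0.85 and 1.10 in CP (3.32-fold, adjusted p = 0.0016). TIPIN had 2.81, 2.80 and 2.03 in GZ, against 1.84, 2.09 and 2.16 in CP (0.51 ± 0.24 SE, adjusted p = 0.111). GZ libraries 1 and 2 were above all CP values of TIPIN and GZ library 3 lay within them. Without GZ replicate 3 TIPIN was called, with a difference of 0.77 and an adjusted p of 0.0092.

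The chromatin group held the largest rise of all. CDCA7, which partners the remodeller HELLS in work needed for DNA methylation, had 5.47, 5.90 and 5.17 in GZ, against 3.36, 2.51 and 2.90 in CP (6.01-fold, 2.59 ± 0.24 SE, adjusted p = 2.22e-04). It ranked at position 12 of 13460 genes by difference. HELLS had 4.30, 4.54 and 3.52 in GZ, against 2.97, 2.61 and 2.73 in CP (2.55-fold, adjusted p = 0.0038). The lowest CDCA7 value in GZ lay well above its highest CP value, and that gap was wider than the gap of HELLS.

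CHAF1A and CHAF1B are subunits of CAF-1, which deposits histones behind the fork. CHAF1A had 4.07, 4.17 and 3.50 in GZ, against 2.84, 2.54 and 2.88 in CP (2.23-fold, adjusted p = 0.0025). CHAF1B had 2.98, 3.04 and 2.49 in GZ, against 1.94, 1.98 and 1.77 in CP (1.92-fold, adjusted p = 0.0047). Neither overlapped between tissues. The 4 calls of this group held when any 1 library was left out.

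The genes of S-phase entry rose as well. CCNE2, a cyclin E that activates CDK2, had 4.62, 4.81 and 3.85 in GZ, against 2.92, 2.85 and 2.62 in CP (3.10-fold, 1.63 ± 0.24 SE, adjusted p = 0.0014). CCNE1, the other cyclin E, had 1.97, 1.83 and 1.16 in GZ, against 0.64, 0.78 and 0.77 in CP (1.90-fold, adjusted p = 0.017). CCNE2 was also the more abundant, at 21.5 normalized FPKM in GZ and 6.94 in CP, against 3.15 in GZ and 1.65 in CP for CCNE1. CDC25A, the phosphatase that removes inhibitory phosphates from CDK2, had 3.19, 3.30 and 2.62 in GZ, against 2.38, 1.89 and 2.16 in CP (1.86-fold, adjusted p = 0.012). CCNE1 was not called without GZ replicate 1 (adjusted p = 0.068) or GZ replicate 2 (0.060).

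Other subunits of the same complexes, which are not among the 47, did not all move with the listed ones. The complexes were put together after the values were seen. In polymerase epsilon POLE, POLE2 and POLE3 rose and POLE4 fell, with POLE3, a histone-fold subunit, 1.33-fold higher in GZ. POLE4, the histone-fold partner of POLE3, had 3.00, 3.25 and 2.96 in GZ, against 4.47, 4.85 and 4.36 in CP, and was 2.80-fold higher in CP (-1.49 ± 0.15 SE, adjusted p = 3.20e-04). In polymerase delta POLD1 alone was called, and POLD2 (-0.26 ± 0.10), POLD3 (0.08 ± 0.11) and POLD4 (0.24 ± 0.15 SE) were not. PRIM2, the large primase subunit, differed by 0.17 ± 0.12 SE (adjusted p = 0.284). Of the origin recognition complex ORC2 and ORC6 rose, and ORC3, ORC4 and ORC5 were not called, with differences of -0.24, -0.04 and -0.05. RFC1, the large loader subunit, differed by 0.12 ± 0.09 SE (adjusted p = 0.318), and RPA3 by 0.53 ± 0.23 SE (adjusted p = 0.093).

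**Figure D3:**
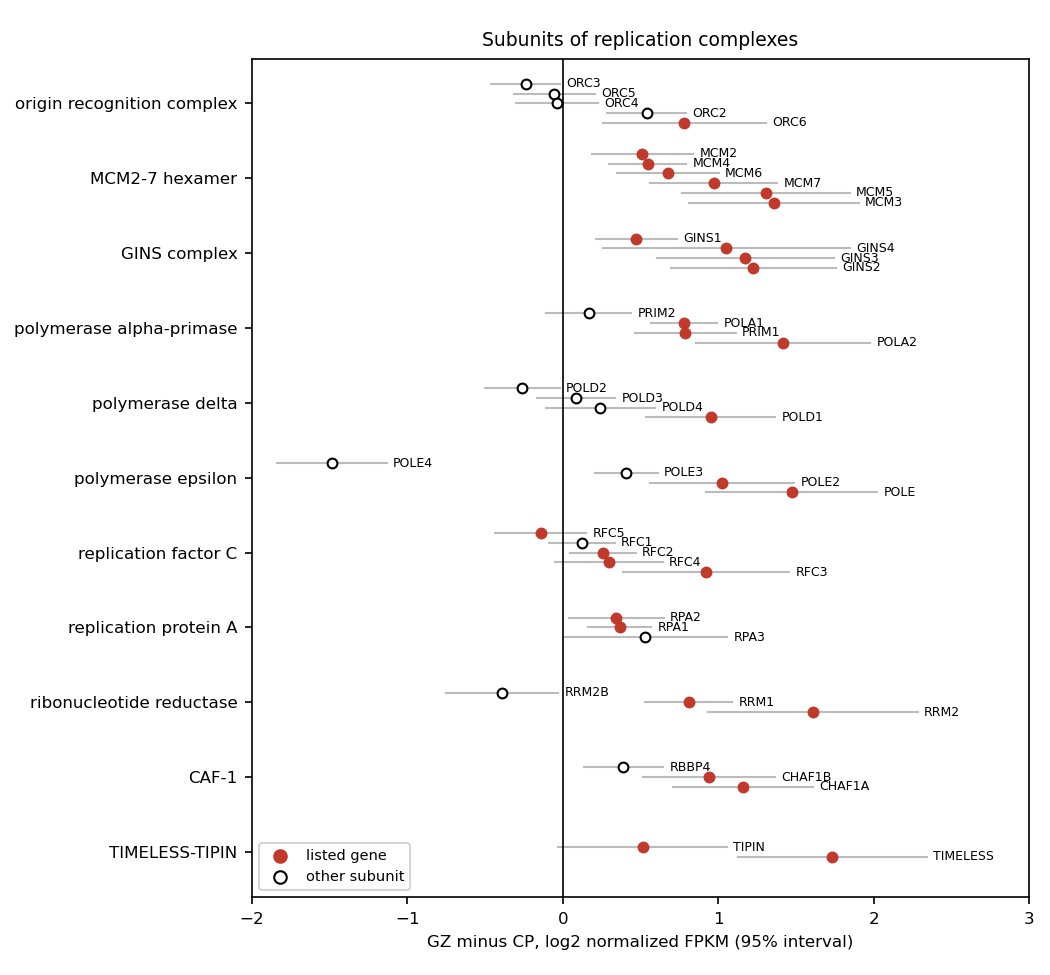
Difference of each measured subunit of 11 complexes, GZ minus CP on the log2 scale, with its 95% interval. Filled points are listed genes and open points other subunits. POLE4 is the subunit farthest to the left, at -1.49, and RPA has the narrowest range of differences, at 0.19.

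Ratios between partners within a library set them directly against each other. The 8 ratios computed were chosen after the values were seen, and with 3 against 3 libraries an exact permutation test cannot go below p = 0.1, which is what each of them gave (two-sided, also 0.1 when adjusted over the 8). The log2 ratio of POLE over POLE4 was 0.55 ± 0.36 in GZ and -2.41 ± 0.33 in CP (SD, n = 3), a 7.78-fold shift. RRM2 over RRM2B, the ribonucleotide reductase subunit used outside S phase, was 2.27 ± 0.37 in GZ and 0.26 ± 0.25 in CP. In every library RRM2 was thus above RRM2B per length, and every CP margin was smaller than every GZ margin. TIMELESS over TIPIN was 0.38 ± 0.10 in GZ and -0.83 ± 0.56 in CP. The CP spread came from library 1, whose ratio was higher than in CP libraries 2 and 3. GINS2 over CDC45 was 0.68 ± 0.20 in GZ and -0.82 ± 0.75 in CP. RFC3 over RFC5 was 0.27 ± 0.34 in GZ and -0.80 ± 0.28 in CP. Like POLE over POLE4, these 3 ratios had opposite signs in the tissue means. Single libraries went against the means, since RFC3 over RFC5 was -0.12 in GZ library 3 and GINS2 over CDC45 was 0.03 in CP library 1. MCM3 over MCM2 was -1.34 ± 0.18 in GZ and -2.19 ± 0.18 in CP, and POLD1 over POLD2 was -0.76 ± 0.18 in GZ and -1.98 ± 0.09 in CP. CDT1 over GMNN, the gene of its inhibitor geminin, was 1.22 ± 0.32 in GZ and 0.11 ± 0.17 in CP.

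The 46 genes moved together between libraries of 1 tissue. GZ library 3 was the lowest GZ library for 44 of the 46 genes and the highest for 0, while over all genes tested it was lowest for 39.5%. GZ library 2 was the highest for 36 of the 46 (78.3%, against 29.7% of all genes tested), and in CP library 1 was the highest for 34 (73.9%, against 36.6%). The median of the 46 genes was 3.99, 4.07 and 3.51 in GZ libraries 1, 2 and 3 and 2.98, 2.58 and 2.78 in CP libraries 1, 2 and 3. The lowest GZ library was thus still above the highest CP library. Of 19 mitosis genes all 19 were lowest in GZ library 3 among GZ libraries, and all 19 were highest in CP library 1 among CP libraries. Summed normalized FPKM of the 12 neuron markers was 1972, 1853 and 2217 in GZ libraries 1, 2 and 3 and 2854, 2547 and 2768 in CP libraries, so that GZ library 3 had the highest neuron level of the GZ libraries. Summed FPKM of the 4 interneuron lineage markers was 568, 669 and 482 in GZ and 229, 199 and 205 in CP, with GZ library 3 the lowest of GZ. The 7 radial glia markers summed to 387, 409.8 and 412 in GZ and 442, 359 and 332 in CP, with GZ libraries 2 and 3 nearly equal. Their median log2 level was 5.35, 5.52 and 5.56 in GZ and 4.76, 5.14 and 4.77 in CP. The 4 intermediate progenitor markers summed to 212, 215 and 223 in GZ, highest in GZ library 3, and 141, 134 and 126 in CP. HES6, the most abundant of them, weighs most in these sums. Their median log2 level was 3.77, 3.36 and 4.38 in GZ, again highest in library 3, and 3.24, 3.02 and 2.95 in CP. The part of these cell types in the spread of the replication genes was not tested. Without GZ replicate 3 the median difference was 1.17, with 43 of 46 genes called higher, and without GZ replicate 2 it was 0.84 with 35.

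**Figure D4:**
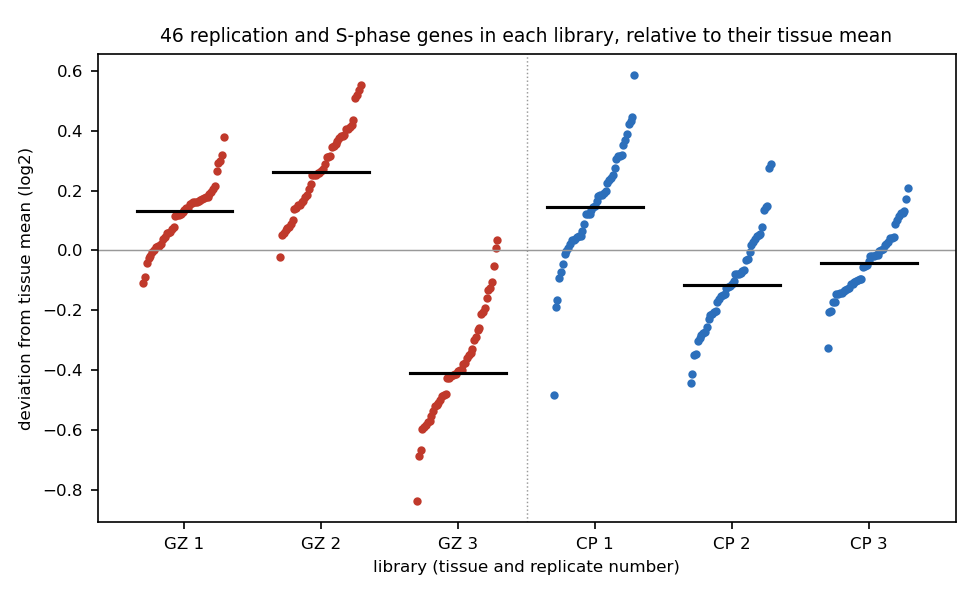
Deviation of each of the 46 genes from its mean over the 3 libraries of the tissue (log2), by library, with a black line at the median. GZ library 3 has a median of -0.41, and GZ libraries 1 and 2 have medians of 0.13 and 0.26.

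Across the 46 genes, the mean level over both tissues and the difference had a Spearman rho of -0.41 (46 genes that share the 6 libraries). Over all genes tested rho was -0.04. Both measures contain the CP level, so a wider spread of levels in CP than in GZ gives a negative rho by itself. The rho therefore does not show that abundant genes rise less. By GZ level CDCA7, CDT1 and CDC6, with the largest differences, ranked at 3, 7 and 38 of the 46. The pattern had exceptions on both sides. CDC45, with the lowest difference, stood at only 9.14 normalized FPKM in GZ and 11.1 in CP, and FEN1 at 9.27 in GZ and 7.16 in CP, while PCNA and RRM1 had high levels and clear rises.

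**Figure D5:**
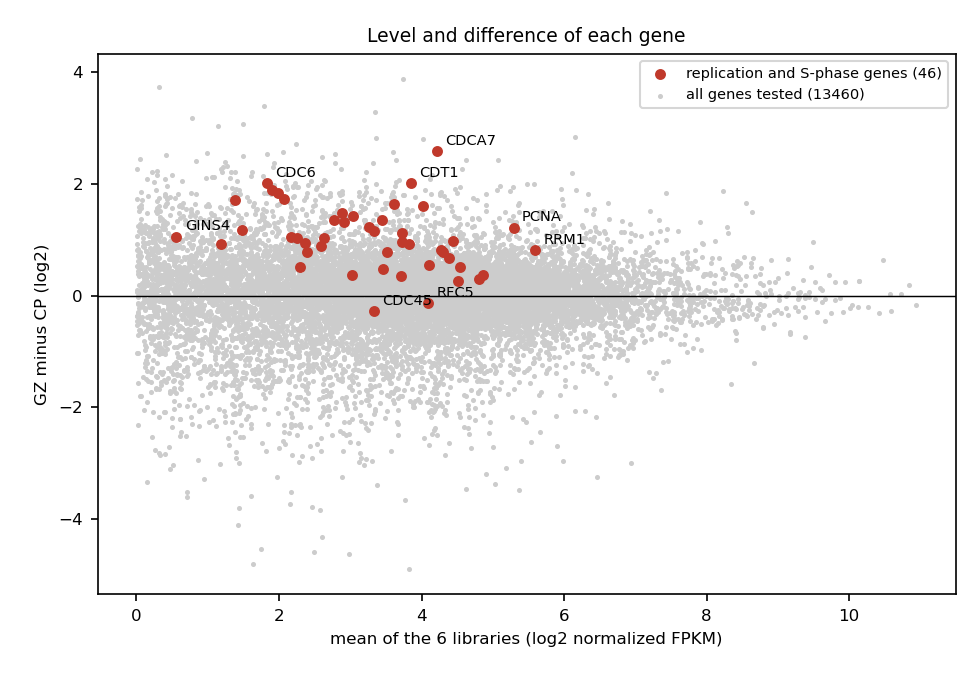
Mean log2 normalized FPKM of each gene over the 6 libraries (horizontal) against its difference, GZ minus CP (vertical). The 46 replication and S-phase genes (large points) lie mostly above 0 within the cloud of 13460 tested genes (small points), with CDC45 and RFC5 below 0.

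Replication genes outside the list gave rises, 1 fall and many differences that were not called. Of 26 measured replication factors outside the list 12 rose in GZ, 1 fell and 13 were not called, with a median difference of 0.36. The rises were 46.2% of the 26, against 24.5% of all genes tested. Without both libraries numbered 1 the rises were 4 of 26, where 12.2% of all genes tested rose, which is near that background. The largest rises were those of DSCC1, a subunit of an alternative clamp loader (3.83-fold, adjusted p = 0.0052), and TICRR, which helps to load CDC45 (3.16-fold, adjusted p = 0.0028). WDHD1, which ties polymerase alpha to the helicase, was 2.35-fold higher and MTBP, the partner of TICRR, 1.93-fold. GMNN was 1.87-fold higher (adjusted p = 0.014). POLE4 was the gene that fell.

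Of 8 nucleotide metabolism genes outside the list 1 rose in GZ and 1 fell, where 24.5% of all genes tested rose and 20.9% fell. The rises were 12.5% of the 8, so this list held no excess of rises. DTYMK, thymidylate kinase, was 1.55-fold higher (adjusted p = 0.0031) and NME1, a nucleoside diphosphate kinase, 2.01-fold higher in CP (adjusted p = 1.51e-04). RRM2B differed by -0.39 ± 0.16 SE (adjusted p = 0.075) and SAMHD1, which breaks down nucleotides, by -0.44 ± 0.17 SE (adjusted p = 0.068). Of 6 histone supply genes 4 rose (66.7%). They were led by the chaperone gene ASF1B (2.54-fold) and HAT1, a histone acetyltransferase (1.77-fold), with NASP and RBBP4 at 1.30-fold and 1.31-fold. Among 3 measured cell cycle inhibitors CDKN2C was 3.88-fold and CDKN1C 1.34-fold higher in GZ, and CDKN2D was 2.10-fold higher in CP (adjusted p = 3.14e-04). CDKN1A, CDKN1B, BTG1 and BTG2, also on that list, had no symbol match. In the mitosis list 17 of 19 genes rose (89.5%), with a median difference of 1.75 against 1.00 for the 46 genes. KIF20A and AURKB were 3.95-fold and 3.94-fold higher there, and MKI67 and CCNB2 4.24-fold and 4.21-fold. TOP2A was 3.88-fold higher, and PLK1 and CENPE were not called (adjusted p = 0.054 and 0.051).

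Markers of several cell types were called between GZ and CP, where 24.5% of all genes tested rose and 20.9% fell. Of 12 neuron markers 9 fell and 1 rose in GZ, of 7 vessel markers all 7 fell, and of 7 radial glia markers 4 rose and 1 fell. The summed vessel level was 25.8 to 54.9 normalized FPKM in GZ and 106 to 147 in CP, and the summed neuron level 1853 to 2217 in GZ and 2547 to 2854 in CP. NEFL, a neurofilament gene, was 10.4-fold higher in CP and NEUROD6, a factor of excitatory neurons, 9.52-fold. Radial glia markers summed to 387 to 412 in GZ and 332 to 442 in CP, which overlap. The sum weighs the most abundant markers most, among them VIM and SLC1A3, which were not called. Their median log2 level did not overlap, at 5.35 to 5.56 in GZ and 4.76 to 5.14 in CP. Of these markers NOTCH1 was 2.59-fold higher in GZ and PROM1 3.98-fold higher in CP. All 4 interneuron lineage markers rose, with DLX6 4.92-fold and GAD2 4.00-fold higher, and 3 of 4 intermediate progenitor markers rose, among them HES6 (1.56-fold). Of 3 microglia markers limma called 0, also at an unadjusted p under 0.05, and they summed to 39.7 to 63.9 in GZ and 51.6 to 75.8 in CP. Of 3 oligodendrocyte markers 2 rose, of 4 astrocyte markers 1 fell, of 3 erythroid markers 2 fell, and of 5 fibroblast and meninges markers limma called 0 at the adjusted threshold. NEUROG1, ALDH1L1 and AHSP were under the filter on low values. SOX2, HES1, HES5, FABP7, EOMES, DLX1, DLX2, DLX5, OLIG1, SOX10, CLDN5, HBB and HBM had no symbol match and were not analysed here. The same held for AIF1, CX3CR1, C1QA, C1QB and P2RY12, so only 3 of 8 listed microglia markers were measured. The part of these cell types in the rise of the replication genes was not tested.

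Reads of overlapping genes may affect some values. The labels name a TruSeq RNA kit and do not say whether strand was used in counting. In the gene order of the RefSeq assembly T2T-MMU8v2.0, which is not the build of the files, 45 of the 46 genes were placed and 10 overlapped another protein-coding gene. RFC4 overlapped EIF4A2, a translation factor gene whose level was 8.48 ± 0.09 in GZ and 8.90 ± 0.05 in CP (SD, n = 3) and which fell in GZ by 0.42 (adjusted p = 0.0029). RFC5 overlapped WSB2, at 7.21 ± 0.17 in GZ and 8.23 ± 0.07 in CP, which fell by 1.02 (adjusted p = 2.22e-04). Both partners were more abundant per length than the loader genes and fell in GZ, while RFC4 and RFC5 were not called. GINS2 overlapped COX4I1, at 6.63 ± 0.04 in GZ and 7.17 ± 0.10 in CP. COX4I1 was likewise more abundant per length than GINS2 and fell by 0.54, while GINS2 rose. DTL overlapped INTS7, which rose by 0.54. ORC6 overlapped VPS35, at 6.05 ± 0.07 in GZ and 5.84 ± 0.06 in CP. VPS35 was more abundant per length than ORC6 and rose by 0.21 (adjusted p = 0.045 by limma). AP4M1, KLHDC1, CLIP2 and INTS8, which overlapped MCM7, POLE2, RFC2 and CCNE2, were not called. PXMP2, which overlapped POLE, was under the filter on low values. In that assembly CDC45 and TIPIN overlapped no protein-coding gene, and CLDN5, a neighbour of CDC45, had no symbol match. The share of reads that these genes exchange was not tested.

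The tested genes next to the replication genes in the same RefSeq order rose and fell about as often as all genes tested. Of 90 neighbours 56 were tested, among them overlapping genes such as VPS35 and INTS7. Of these 56, 12 rose in GZ (21.4%, against 24.5% of all genes tested) and 13 fell (23.2%, against 20.9%). Their median difference was 0.07.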

How the data were processed

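RNA of fetal macaque brain was measured in 3 GZ and 3 CP libraries, made with a TruSeq RNA kit from total RNA per the labels' protocols. The authors deposited 1 table of log2 FPKM after cqn normalization, per the labels. The submitters' processing notes list STAR, SAMtools, Mmul_8.0.1 and rheMac8 with no role for any of them, and the read counter and annotation were not given in these sources. Ensembl IDs were matched to symbols with a macaque name table, for 14700 of 22345 genes (65.8%), and gene neighbours were read from RefSeq T2T-MMU8v2.0 by symbol.

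Genes averaging 0 or above on the log2 scale entered the fit, made with limma 3.58.1 (lmFit and eBayes with trend, R 4.3.3), GZ minus CP, with Benjamini-Hochberg adjustment over all 13460 genes. Fold changes are powers of 2 of the difference on the deposited scale, and no pseudocount was added. The fit was tested on simulated data. Within-library ratios were compared with an exact permutation test (scipy 1.17.1). All listed genes are named, with values in every library for the highest 2 and lowest 2 by difference in each role and for those not called. Of other lists up to 4 called genes per direction are named, besides MKI67, TOP2A, GMNN, RRM2B and SAMHD1. Further subunits of the complexes, and neighbours or overlapping genes, are named by membership, chosen after the values were seen. The members and lists were chosen with earlier results of these data known, and the Y-linked list and the ratios were added after the values were seen. Alternatives were a replicate block, variance models without trend, robust or with array weights, quantile normalization or median centring, 1 added before the log, no or a stricter filter, and fits without 1 or 2 libraries.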

Additional observations from a re-analysis of the deposited data

How the results depend on the processing

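Of the 41 rises, 25 were called in every one of the 16 alternatives run. Settings that kept all 6 libraries gave 39 to 44 of the 46 genes higher, and leaving out 1 library gave 33 to 43, with medians of 0.84 to 1.17. Without both libraries numbered 1 the calls over all genes were 3365, with 1644 higher and 1721 lower, against 6113 with all libraries, the listed genes called higher were 25, and other replication factors called higher were 4. Fewer libraries enter there, and the cause was not tested further. CDC45 had a difference of 0.022 with array weights (adjusted p = 0.941 by limma) and of -0.71 to -0.04 under the other alternatives. Testing all genes of the table moved the median difference over all genes to 0.21, against 0.05, and left the median of the 46 genes at 1.00. With the replicate number as a block 39 of the 46 genes and 6117 genes in all were called, and RFC2 and FEN1 missed the threshold. Deviations of same-numbered GZ and CP libraries correlated at -0.38, 0.30 and 0.35 for numbers 1, 2 and 3. Libraries numbered 2 and 3 thus correlated best with their own number, as a hint from the data, and those numbered 1 did not, so the block was kept as an alternative. The table gives no counts, so counting error of the low genes, among them GINS4 and CLSPN in CP, is unknown.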
